A study of Homo sapiens with 8 samples.

Results

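Cytosolic ribosomal proteins are the structural proteins of the ribosome that translates nuclear-encoded mRNAs, and their own mRNAs are short and abundant. The 80 genes described here, of 10956 genes measured, were chosen by symbol: names that start with RPL or RPS followed by a number, RPSA, and the stalk genes RPLP0, RPLP1 and RPLP2, without pseudogenes and without ribosomal protein kinases. A gene counted as measured when at least 1 of its probes passed as well above background on all 8 arrays, and the brightest of those that passed represented it. Of 84 matching symbols, 82 had a probe on the array. RPL10 and RPSA had none that could be matched. RPL27A, whose only probe reached 5 of 8 arrays, and RPL3L, a muscle paralog of RPL3 that reached 7 of 8, did not pass. The measured members comprised 49 large-subunit and 31 small-subunit genes.

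The study asked which mRNAs are brought to AGO2, the protein that holds a microRNA against its targets, when A431 cells carry miR-634. A431 is a human squamous carcinoma cell line. By transfection, the cells received either a negative control RNA (miR-NC) or miR-634, each at 10 nM, and lysates were made 24 h later. RNA from an AGO2 immunoprecipitation (RIP) and from the input was hybridised to one-color arrays. The 4 groups, input and RIP of cells given miR-NC and input and RIP of cells given miR-634, had 2 arrays each. For the input arrays the labels name a normal rabbit IgG antibody, while the methods describe total RNA, and which applies could not be settled here. Nothing in the labels says that replicates came from separate cultures, so p-values measure only the spread between these arrays, which may be technical.

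Most ribosomal protein mRNAs begin with a run of pyrimidines headed by C, the 5' terminal oligopyrimidine (TOP) motif, through which mTOR signalling and LARP1 set their translation together. Their untranslated regions are short, which leaves little room for microRNA sites, and they are among the most heavily expressed mRNAs of proliferating cells. A microRNA finds targets mainly through its seed, the bases near its 5' end, and the AGO2 complex usually acts through the 3' untranslated region to shorten the life of the mRNA or lower its translation.

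The transfected microRNA is shown first because every comparison turns on it, with its seed (bases 2 to 8) in capitals; the mature sequence lies at chr17:66787132-66787153 on the plus strand. Below it stand the annotated starts of 8 members whose values are given in full, 15 bases before and 15 after, with capitals on a run of C and T that begins at the start with C and goes on for at least 4 more bases. All sequences are from RefSeq on GRCh38.p14. They lie at chr19:39435935-39435964 (RPS16, minus strand), chr12:56116618-56116647 (RPL41, plus), chr6:42879601-42879630 (RPL7L1, plus), chr2:216498829-216498858 (RPL37A, plus), chr19:5690280-5690309 (RPL36, plus), chr16:89560667-89560696 (RPL13, plus), chr12:56041903-56041932 (RPS26, plus) and chr12:120201097-120201126 (RPLP0, minus).
hsa-miR-634: aACCAGCAccccaacuuuggac
RPS16: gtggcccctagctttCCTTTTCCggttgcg
RPL41: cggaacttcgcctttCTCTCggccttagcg
RPL7L1: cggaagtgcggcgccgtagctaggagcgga
RPL37A: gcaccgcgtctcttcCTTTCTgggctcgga
RPL36: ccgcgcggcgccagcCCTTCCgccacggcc
RPL13: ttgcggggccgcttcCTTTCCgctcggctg
RPS26: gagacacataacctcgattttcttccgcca
RPLP0: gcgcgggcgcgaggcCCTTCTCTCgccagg

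Such a run, read on the gene's own strand at the annotated start, was present in 44 of the 64 members with a start in the table (68.8%), against 659 of 8752 measured genes (7.53%) and 1429 of all 35116 starts (4.07%). It was found in 27 of 40 large-subunit and 17 of 24 small-subunit members. RPL7L1 and RPS26 had none at the annotated base. RPS16 and RPL41, whose RIP/input moved in 1 direction, and RPL37A, RPL36 and RPL13, which moved in the other, carried it. Of the other members flagged in the closing part for calls in opposite directions, RPL26, RPL31, RPL34 and RPS19 carried it too. RPL7L1, RPS7, RPS15, RPS26 and RPS28 of that group did not, and RPS20 was not among the members with a start. The median difference in enrichment between miR-634 and miR-NC cells was -0.67 over members with the run and -0.80 over those without, so both medians were negative (spike-in scaling, described below, shifts all genes by 1.08 and turns them positive).

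The label of the cells was checked with markers. All 10 squamous markers were measured, among them EGFR, KRT5 and KRT14, and SFN was the brightest. Their summed level, in log2 above each array's 75th percentile, was 6.23 and 6.24 in miR-NC input, 6.79 and 6.82 in miR-NC RIP, 6.38 and 6.42 in miR-634 input, and 6.34 and 6.61 in miR-634 RIP. The 10 lay far apart: in miR-NC input SFN read 5.26 and 5.24. TP63, at -4.35 and -4.42, and PKP1, at -2.70 and -2.83, were the lowest there. Of 6 fibroblast markers 0 passed on all 8 arrays: LUM was well above background on 7, PDGFRB on 6, COL1A1 on 4, DCN on 1 and COL1A2 and COL3A1 on 0. CD14 was the 1 of 5 leukocyte markers measured, PTPRC was well above background on 4 arrays and CD3E on 0, and LYZ had no matched probe. CD14 lay at -0.37 and -0.40 in miR-NC input, -0.03 and -0.01 in miR-NC RIP, -0.69 and -0.70 in miR-634 input, and -1.22 and -1.34 in miR-634 RIP, and its part in the results was not tested. The endothelial list had 2 of 3 measured (CDH5 and VWF, summed -4.48 and -4.30, -3.24 and -3.52, -4.42 and -4.11, and -3.77 and -3.78 in the same order of groups; PECAM1 on 0 arrays). The melanocyte list had 1 of 4 (MITF, -2.60 and -2.51, -3.20 and -3.33, -2.33 and -2.41, and -3.58 and -3.45; PMEL on 6 arrays, MLANA and TYR on 0).

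Targets named by the study were looked at in the RIP. APIP, an enzyme of methionine salvage, read -1.90 and -1.85 in miR-NC input, -2.0 and -2.12 in miR-NC RIP, -2.95 and -3.06 in miR-634 input and 0.04 and -0.07 in miR-634 RIP. Its 2 miR-634 RIP arrays stood above all 6 others, and its difference in enrichment was 3.16 (limma adjusted p = 1.4e-06). SLC1A5, a glutamine transporter, gave 2.81 (adjusted p = 3e-06), also with both miR-634 RIP arrays above the rest, but the study chose SLC1A5 in part by its RIP enrichment on these arrays, so its rise is no separate check. AGO2 mRNA itself was 0.45 higher in miR-634 input than in miR-NC input (adjusted p = 0.0012), the 2 arrays of each kind not overlapping, although with spike-in scaling its call was lost (0.23).

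Values below are log2 intensities from which the 75th percentile of the same array was subtracted, so 0 is the level of that percentile. Enrichment means RIP minus input within 1 kind of cell. The share of spots well above background was 45.6% and 45.6% in miR-NC input, 33.6% and 34.5% in miR-NC RIP, 45.8% and 45.8% in miR-634 input, and 40.0% and 40.0% in miR-634 RIP, and 0 spots were saturated. Members were measured with a small spread: the median SD between the 2 arrays of a group was 0.020 in miR-NC input, 0.030 in miR-NC RIP, 0.033 in miR-634 input and 0.040 in miR-634 RIP, beside 0.035, 0.060, 0.042 and 0.059 over all genes. Only RPL15 in miR-NC RIP (0.86) and RPS27A in miR-NC input (0.52) had an SD above 0.5. The number of arrays limits the precision. All arrays lay on 1 slide, scanned once, with input and RIP on opposite sides of the slide and miR-NC and miR-634 in separate columns, so position and group cannot be told apart.

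In miR-NC cells the members split. Enrichment was higher than 0 by limma at an adjusted p under 0.05 for 32 of 80 members, lower for 39 and not called for 9, where 33.6% of all genes were called higher and 45.3% lower. The median over members was -0.13, with quartiles at -0.72 and 0.53, beside -0.12 over all genes. The split depended on the scaling: quantile normalization gave 16 higher and 56 lower with a median of -0.52 (all genes 3710, 4831 and -0.11), normexp with quantile normalization 15 and 53 with -0.52 (3701, 4778 and -0.091), and spike-in scaling 0 and 78 with -2.67 (63, 10743 and -2.66). The members' median minus that of all genes was thus -0.01 with the scaling used here and with the spike-ins, and -0.41 and -0.43 with the quantile settings. It was -0.52 without a filter on dim probes and 0.06 with the filter on input arrays. The large subunit had a median of -0.37 (18 higher, 27 lower of 49) and the small one 0.13 (14 higher, 12 lower of 31), a value that spike-in scaling, which moves all genes by -2.53 here, turns negative.

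RPL37A and RPL13 were the most enriched members in miR-NC cells. RPL37A, a zinc-binding protein of the large subunit, read 5.48 and 5.55 in miR-NC input and 7.93 and 7.98 in miR-NC RIP. RPL13, also of the large subunit, read 6.48 and 6.50 in input and 8.80 and 8.91 in RIP. For both, the RIP arrays stood far above the input arrays, with enrichments of 2.44 (5.41-fold; adjusted p = 2.8e-07) and 2.37 (5.17-fold; adjusted p = 4.5e-07), which spike-in scaling turned to -0.10 and -0.16.

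At the other end stood RPL15 and RPL22L1. RPL15, a large-subunit protein, read 5.03 and 5.07 in miR-NC input but 3.04 and 4.25 in miR-NC RIP, so the arrays did not overlap and the RIP arrays lay far apart. Its enrichment was -1.41 (adjusted p = 0.0082), -0.80 without miR-NC RIP array 1 and -2.01 without array 2, and -0.61 with the mean of its probes, so its place at the end of the order was not stable. RPL22L1, the paralog that can take the place of RPL22, read 3.47 and 3.61 in input and 2.10 and 2.19 in RIP, all RIP arrays low, an enrichment of -1.39 (adjusted p = 3.5e-06).

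In miR-634 cells most members were depleted from the RIP. Enrichment was higher for 15 of 80 members and lower for 57, with 8 not called, beside 36.1% and 48.3% of all genes. The median over members was -0.87 (quartiles -1.29 and -0.08) against -0.17 over all genes, and it stayed negative under every scaling tried, between -0.76 and -2.32. The 2 subunits lay close together, at -0.82 for the large (10 higher, 35 lower) and -0.96 for the small (5 higher, 22 lower). Taken separately, arrays numbered 1 gave a members' median of -0.80 and those numbered 2 gave -0.91. With spike-in scaling only 2 members, RPS16 and RPL41, were called higher and 73 lower, where 712 genes in all were called higher and 9195 lower.

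RPS16 and RPL41 were the most enriched members in miR-634 cells, and RPL17 and RPL29 the most depleted. RPS16 sits near the decoding centre, and its C-terminal tail reaches the tRNA. It read 4.77 and 4.76 in miR-634 input and 7.92 and 7.91 in miR-634 RIP, an enrichment of 3.15 (8.90-fold; adjusted p = 6.5e-08). RPL41, the smallest protein of the ribosome, read 5.37 and 5.45 in input and 8.43 and 8.36 in RIP, an enrichment of 2.98 (7.90-fold; adjusted p = 8.8e-08). For both genes the RIP arrays lay far above the input arrays.

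RPL17, which lines the exit of the nascent chain, read 4.79 and 4.79 in miR-634 input and 2.65 and 2.45 in miR-634 RIP. RPL29, a basic protein of the large subunit, read 3.90 and 3.95 in input and 1.86 and 1.83 in RIP. Both were low on both RIP arrays, with enrichments of -2.23 (adjusted p = 4.7e-07) and -2.08 (adjusted p = 1.3e-07).

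**Figure D1:**
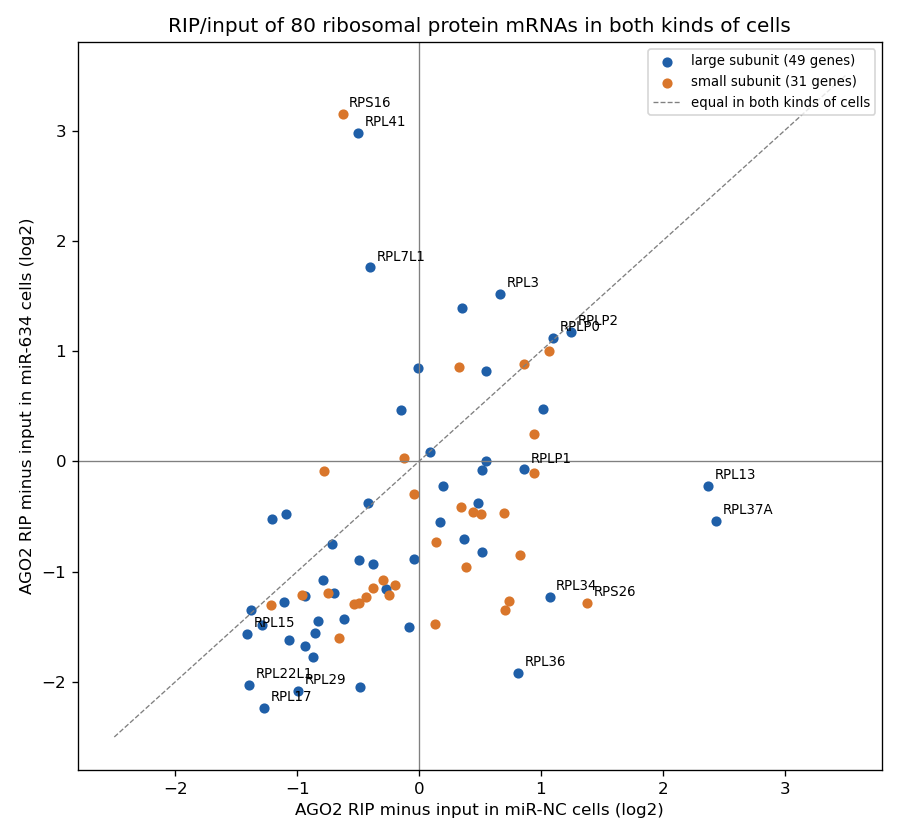
Enrichment (AGO2 RIP minus input, log2) of each of the 80 members in miR-NC cells (horizontal) against miR-634 cells (vertical), 1 point per gene. RPS16, RPL41 and RPL7L1 stand apart at the top left, below 0 in miR-NC cells and at 1.76 or more in miR-634 cells, RPL37A and RPL13 lie at the right with 2.44 and 2.37 in miR-NC cells, and spike-in scaling would move all points by -2.53 along the horizontal and -1.45 along the vertical axis.

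Setting both kinds of cells side by side, 10 members (12.5%, beside 21.3% of all genes) were called higher in both, among them RPL3, RPLP0, RPLP2 and RPS25. Another 34 (42.5%, beside 32.9%) were called lower in both, among them RPL5, RPL7, RPL11, RPL15, RPL17, RPL22, RPL29, RPS27 and all measured paralog members but RPL7L1. With the mean of the probes, the calls of RPL15 in miR-634 cells (0.014) and of RPS27 in miR-NC cells (-0.11) were lost. Calls turned from higher in miR-NC cells to lower in miR-634 cells for 18 (22.5%, beside 6.10%), with RPL37A, RPL13, RPL36, RPL26 and RPS6 among them. They turned from lower to higher for 4 (5%, beside 8.45%), RPL7L1, RPL8, RPL41 and RPS16, of which RPL8 was noticed after its values were seen. The lower call of RPL8 in miR-NC cells (-0.15) was lost with median scaling, the percentile of all probes, the authors' values and no filter on dim probes, and without any 1 of the 4 miR-NC arrays, and with normexp and quantile normalization RPL8 was called lower in miR-634 cells. Another 4 (5%, beside 6.20%), RPLP1 among them, were higher in miR-NC cells and not called in miR-634 cells, and 5 (6.25%, beside 9.25%), RPS4X among them, were not called in miR-NC cells and lower in miR-634 cells. Of the other 5, 1 was lower and then not called (1.25%, beside 3.87%), 1 was not called and then higher (1.25%, beside 6.41%), and 3, RPS27A among them, were not called in either (3.75%, beside 5.52%). These counts rested on the scaling. Members turning from higher to lower were 10 with quantile normalization, 9 with normexp and quantile normalization, 12 with the percentile of all probes and with the authors' values and 0 with the spike-ins, which left 0 members higher in both, 71 lower in both (88.8%, beside 83.6%) and 2 turning from lower to higher. Across the 80 members the 2 enrichments, which share no arrays, correlated with r = 0.37 (Pearson) and rho = 0.53 (Spearman), beside 0.58 and 0.60 over all genes. Without RPS16, RPL41 and RPL7L1, 3 members set aside after their values were seen, r was 0.55 and rho 0.60 over 77. Genes are not independent replicates, and these describe the arrays only.

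The difference in enrichment (miR-634 minus miR-NC cells) compares RIP relative to input between both kinds of cells, on values scaled within each array. It was lower for 54 of 80 members, higher for 12 and not called for 14, beside 43.3% of all genes lower and 28.1% higher. The members' median was -0.67 (quartiles -0.95 and -0.07) against -0.22 over all genes, a direction that held under every scaling except the spike-ins, which gave 0.42 with 33 members higher and 8 lower. Under spike-in scaling the all-gene median itself moved by 1.08 (7345 genes higher, 193 lower), and it moved by -2.53 for enrichment in miR-NC cells, -1.45 in miR-634 cells, -0.22 for the input and 0.86 for the RIP arrays. Scaling on the percentile of all probes moved it by 0.12 for the difference, 0.11 for miR-634 enrichment and 0.17 for the RIP arrays. The members' median minus that of all genes ran from -0.52 to -0.15 over the settings tried, leaving out arrays included. In arrays numbered 1 and in those numbered 2 alike, 59 members were below 0 and 16 above 0 (medians -0.66 and -0.67), while 5 members, 0 of them called, differed in sign.

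RPS16, RPL41 and RPL7L1 gained the most. RPS16 had been lower in RIP than in input in miR-NC cells, at 4.56 and 4.57 against 5.20 and 5.19. Its difference in enrichment was 3.78 ± 0.06 (SE, 2 arrays a group; 13.8-fold; adjusted p = 5.3e-07). RPL41 read 6.40 and 6.37 in miR-NC input and 5.89 and 5.88 in miR-NC RIP, and its difference was 3.48 ± 0.07 (11.2-fold; adjusted p = 6.3e-07). Both miR-634 RIP arrays lay above all 6 other arrays for each gene.

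RPL7L1, a paralog of RPL7 linked to the making of the large subunit, read 0.85 and 0.85 in miR-NC input, 0.42 and 0.48 in miR-NC RIP, -0.14 and -0.22 in miR-634 input, and 1.53 and 1.63 in miR-634 RIP. The order of its groups was the same as for RPL41, with miR-634 RIP highest and miR-634 input lowest. The difference was 2.16 ± 0.08 (4.46-fold; adjusted p = 3e-06). Across the alternatives, spike-in scaling aside, it ran from 2.02 to 2.28, that of RPL41 from 3.44 to 3.60 and that of RPS16 from 3.41 to 3.90.

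The other 9 rises were smaller, and apart from RPL3 and RPS25 these members were singled out after their values were seen. RPL23, which can bind MDM2, gave 1.04 ± 0.06 (adjusted p = 2.1e-05), with 6.32 and 6.34 in miR-NC input, 6.67 and 6.69 in miR-NC RIP, 6.19 and 6.26 in miR-634 input, and 7.63 and 7.61 in miR-634 RIP. Its miR-634 RIP arrays were the highest. RPL3, which reaches into the peptidyl transferase centre, gave 0.85 (adjusted p = 0.00022) from 4.74 and 4.81, 5.38 and 5.5, 4.60 and 4.61, and 6.07 and 6.18 in the same order. Its RIP arrays lay above input in both kinds of cells (0.67 and 1.52), while spike-in scaling gave -1.87 in miR-NC cells and 0.069, not called, in miR-634 cells. The rest were RPL36A at 0.86, RPS9 at 0.70, RPL30 at 0.68, RPL8 at 0.61, RPL6 at 0.61, RPS25 at 0.53 and RPL7A at 0.27.

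By their brightest probes RPL37A and RPL36 lost the most. RPL37A read 5.41 and 5.46 in miR-634 input and 4.90 and 4.89 in miR-634 RIP, so its RIP arrays went from far above input in miR-NC cells to below it. The difference was -2.98 ± 0.07 (adjusted p = 6.8e-07). RPL36, a large-subunit protein, read 3.99 and 3.99 in miR-NC input, 4.78 and 4.82 in miR-NC RIP, 3.81 and 3.91 in miR-634 input, and 2.24 and 1.64 in miR-634 RIP. Its miR-634 RIP arrays were the lowest and also the farthest apart, and the difference was -2.73 ± 0.25 (adjusted p = 0.00012). Without 1 or the other of these arrays it ran from -3.03 to -2.43, the latter smaller than the fall of RPS26. With quantile normalization RPL36 fell more than RPL37A, and with the mean of the probes RPL13 (-3.001) fell more than RPL36.

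RPL13 read 6.42 and 6.50 in miR-634 input and 6.23 and 6.25 in miR-634 RIP, and its difference of -2.59 ± 0.08 (adjusted p = 1.4e-06) stood beside enrichments of 2.37 and -0.22. How much of it lay in either kind of cell depended on the scaling: normexp with quantile normalization gave 0.78 and -0.84, and the spike-ins -0.16 and -1.67. The negative enrichment of RPL13 in miR-634 cells, -0.22 (adjusted p = 0.0084), was lost without miR-634 input array 2 (-0.18), with median scaling (-0.13), with the percentile of all probes and with the authors' values (both -0.11). RPS26, which sits at the exit of the mRNA channel, and RPL34, of the large subunit, were singled out after their values were seen. RPS26 read 6.53 and 6.54, 7.86 and 7.96, 6.40 and 6.45, and 5.17 and 5.11 in the 4 groups (input and RIP of miR-NC cells, then input and RIP of miR-634 cells). RPL34 read 5.04 and 5.04, 6.08 and 6.14, 5.01 and 4.99, and 3.82 and 3.73. In both, miR-NC RIP was the highest group and miR-634 RIP the lowest, with differences of -2.66 (adjusted p = 1.2e-06) and -2.30 (adjusted p = 1.4e-06).

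**Figure D2:**
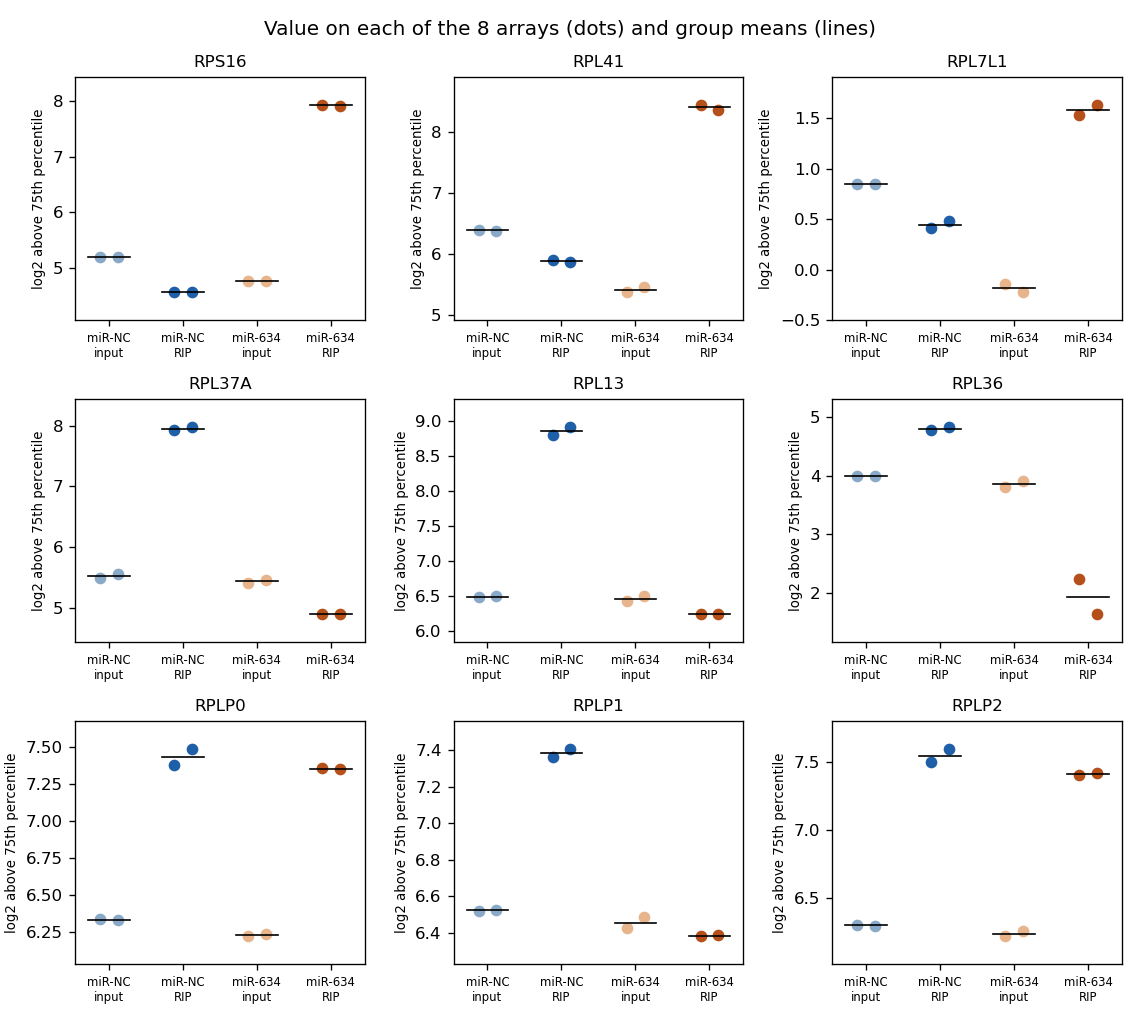
Log2 intensity above the 75th percentile on each of the 8 arrays (dots) with group means (lines) for members described in the text, 1 panel per gene, with the groups along the horizontal axis. RPS16, RPL41 and RPL7L1 are highest in miR-634 RIP, and RPL37A, RPL13 and RPL36 are highest in miR-NC RIP. The input groups of each of these genes lie closer together than its RIP groups, which does not hold for RPLP0.

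The stalk proteins, which contact the GTPases that drive elongation, did not move together. RPLP0 anchors the stalk and read 6.34 and 6.33 in miR-NC input, 7.38 and 7.49 in miR-NC RIP, 6.22 and 6.24 in miR-634 input, and 7.36 and 7.35 in miR-634 RIP. RPLP2 read 6.30 and 6.29, 7.5 and 7.60, 6.22 and 6.26, and 7.41 and 7.42 in the same order. For both, all 4 RIP arrays stood above all 4 input arrays, with enrichments of 1.1 (adjusted p = 4.2e-06) and 1.12 (adjusted p = 1.7e-06) for RPLP0 and 1.25 (adjusted p = 2.4e-06) and 1.18 (adjusted p = 1.3e-06) for RPLP2, values that spike-in scaling turned negative. Quantile normalization left 0.24 and 0.42 for RPLP0 and 0.36 and 0.47 for RPLP2. RPLP1, the partner of RPLP2 in the stalk dimers, read 6.52 and 6.53, 7.36 and 7.40, 6.43 and 6.49, and 6.38 and 6.39. Only its miR-NC RIP arrays were high.

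Enrichment of RPLP1 was 0.86 in miR-NC cells (adjusted p = 6.4e-06; -0.17 with quantile normalization) and -0.07 in miR-634 cells (adjusted p = 0.18; -0.69 with quantile normalization and -0.60 with normexp added, both called lower), and the difference was -0.93 ± 0.06 (adjusted p = 3.3e-05), which turned to 0.15 with spike-in scaling. The differences of RPLP0, 0.03 ± 0.07 (adjusted p = 0.77), and RPLP2, -0.07 ± 0.07 (adjusted p = 0.37), did not pass the test, but quantile normalization called that of RPLP0 higher (0.18), as did the spike-ins (1.11).

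Among members with roles beyond the ribosome, RPS6 is the substrate of the S6 kinases. It read 6.50 and 6.41 in miR-NC input, 6.79 and 7.15 in miR-NC RIP, 6.32 and 6.34 in miR-634 input, and 5.90 and 5.81 in miR-634 RIP. Its RIP arrays lay above input in miR-NC cells (0.51, adjusted p = 0.0054; 0.69 and 0.34 without miR-NC RIP arrays 1 and 2, -0.32 with quantile normalization) and below it in miR-634 cells (-0.48, adjusted p = 0.0067), a difference of -0.99 (adjusted p = 0.0016; 0.09 with spike-in scaling). RPL5 and RPL11 travel together with the 5S rRNA and can hold back MDM2. RPL5 read 5.87 and 5.88, 5.05 and 5.04, 5.87 and 5.87, and 4.44 and 4.42. RPL11 read 5.56 and 5.65, 5.20 and 5.17, 5.53 and 5.58, and 5.18 and 5.16. Both were below input in the RIP of either kind of cell, and the difference was -0.61 for RPL5 (adjusted p = 0.00013; 0.47 with spike-in scaling) and 0.04 for RPL11 (adjusted p = 0.62), which was called higher with quantile normalization (0.26), with normexp and quantile normalization (0.19) and with the spike-ins (1.12).

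RPS27A, made as a fusion with ubiquitin, read 4.46 and 5.20 in miR-NC input, 5.28 and 5.26 in miR-NC RIP, 5.03 and 5.11 in miR-634 input, and 4.62 and 4.60 in miR-634 RIP. RPS4X, an X-linked protein of the small subunit, read 4.80 and 5.5, 5.58 and 5.49, 5.40 and 5.41, and 4.46 and 4.43. In both, miR-NC input array 1 was low, and the input arrays of the 2 kinds of cells overlapped. The differences in enrichment were -0.90 ± 0.30 (adjusted p = 0.034) and -1.35 ± 0.28 (adjusted p = 0.0052). Spike-in scaling gave 0.18 for RPS27A and -0.26 for RPS4X, neither of them called. That of RPS27A was -0.53 and -1.27, both called, without miR-NC input arrays 1 and 2. It was not called with quantile normalization (-0.76), the percentile of all probes and the authors' values (both -0.78), no filter on dim probes and the filter on input arrays (both -0.90), nor without either miR-NC RIP array (-0.89 without array 1, -0.91 without array 2), either miR-634 input array (-0.95 and -0.86) or either miR-634 RIP array (-0.92 and -0.89). Without miR-NC input array 2, RPS27A and RPS4X were called higher in miR-NC RIP than in input (0.81 and 0.73) and higher in miR-634 input than in miR-NC input (0.61 and 0.60). In miR-634 cells enrichment was -0.96 for RPS4X (adjusted p = 0.0036) and -0.46 for RPS27A (adjusted p = 0.085), the latter called without either miR-NC input array at an unmoved value, and with quantile normalization (-0.58) and normexp and quantile normalization (-0.61).

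RPL29 and RPS25, named because their proteins appear on a list of the study, went opposite ways. RPL29 read 4.08 and 4.08 in miR-NC input and 3.10 and 3.07 in miR-NC RIP, beside the miR-634 values above, a difference of -1.09 ± 0.06 (adjusted p = 1.5e-05) that spike-in scaling brought to -0.01. RPS25, which some viral internal entry sites need, read 5.34 and 5.37, 5.67 and 5.69, 5.23 and 5.26, and 6.10 and 6.10 in the 4 groups. Its RIP arrays were above input in both kinds of cells (0.33 and 0.86), a difference of 0.53 ± 0.06 (adjusted p = 0.0003). Enrichment of RPS25 in miR-NC cells turned to -0.0069 with quantile normalization, -0.043 with normexp and quantile normalization and -2.20 with the spike-ins, which gave -0.59 in miR-634 cells.

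All 6 measured paralog members, copies of a ribosomal protein gene kept beside the original, were lower in RIP than in input in miR-NC cells (median -0.97; 45.3% of all genes were lower), and 5 were lower in miR-634 cells (48.3%), the exception being RPL7L1. RPL22L1 read 3.5 and 3.5 in miR-634 input and 1.5 and 1.45 in miR-634 RIP, an enrichment of -2.03 (adjusted p = 3.8e-07). Its difference was -0.64 (adjusted p = 0.00074; 0.45 with spike-in scaling) beside -0.40 for its partner RPL22 (adjusted p = 0.003; 0.68), whose call was also lost with the percentile of all probes and the authors' values (both -0.28). A second probe of RPL22 gave -0.018, and the mean of its probes -0.21. RPS27L, a p53-induced copy of RPS27, read 1.09 and 1.05, -0.13 and -0.16, 0.85 and 0.89, and -0.35 and -0.52 in the 4 groups. RPL39L, a copy of the tunnel protein RPL39 best known from testis, read 0.65 and 0.69, -0.71 and -0.52, 0.46 and 0.36, and -0.99 and -1.16. For both paralogs all 4 RIP arrays lay below all 4 input arrays.

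The differences of RPS27L (-0.09, adjusted p = 0.41) and RPL39L (-0.20, adjusted p = 0.19) did not pass the test. RPS27 itself had one of -0.97 (adjusted p = 3.9e-05; 0.12 with spike-in scaling) and RPL39 one of 0.03 (adjusted p = 0.73). RPL26, which contacts the tunnel exit, was higher in miR-NC RIP (0.37; a second probe gave -0.11, and normexp with quantile normalization 0.11, not called) and lower in miR-634 RIP (-0.71), a difference of -1.08 (adjusted p = 2.6e-05; 0.0060 with spike-in scaling), while its paralog RPL26L1 was at -0.72 and -0.75 with a difference of -0.03 (adjusted p = 0.74). RPL10L, a retrocopy of RPL10, read 3.72 and 3.72, 3.06 and 2.99, 3.47 and 3.54, and 2.34 and 2.29, a difference of -0.50 (adjusted p = 0.00087; 0.59 with spike-in scaling). Both RIP groups of RPL10L were low, and whether its probe also takes up RPL10 mRNA was not tested.

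RPL7, a large-subunit protein and the partner of RPL7L1, read 4.93 and 4.95 in miR-NC input, 3.84 and 3.83 in miR-NC RIP, 4.58 and 4.62 in miR-634 input, and 3.31 and 3.34 in miR-634 RIP. RIP was below input in both kinds of cells (-1.11 and -1.27). The difference of -0.16 (adjusted p = 0.047) stayed called lower only with the intensity trend, and the spike-ins turned it to 0.92. It was not called without any 1 of the 8 arrays, at -0.15 and -0.17 without miR-NC input arrays 1 and 2, -0.16 without either miR-NC RIP array, -0.18 and -0.14 without miR-634 input arrays 1 and 2, and -0.15 and -0.18 without miR-634 RIP arrays 1 and 2.

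Several probes of a member were compared. Of 80 members, 40 had 1 passing probe and 40 had more, up to 9 for RPL21. Over the 40 with more, the median range between probes of a gene was 0.18 for the difference in enrichment and 0.05 for the input change, beside 0.34 for miR-NC enrichment and 0.25 for miR-634 enrichment, where it was above 0.5 for 12 members each. The range of the difference was above 0.5 for 8: RPL13, RPL15, RPL23A, RPL28, RPS2, RPS3A, RPS15A and RPS26. RPS16, RPL41, RPL7L1 and RPL36 rested on 1 probe each. For the input change the range was above 0.5 for RPL23 and RPS15A, each with 1 probe that was low on miR-NC input array 1 (3.82 against 5.24 on array 2 for RPL23, 2.94 against 4.58 for RPS15A), the array on which RPS27A and RPS4X were low. The 2 probes of RPL37A gave -2.98 and -3.15, those of RPL13 -2.59 and -3.41, and the 3 of RPS26 -2.66, -2.88 and -1.0.

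RPS2, a small-subunit protein near the mRNA entry, had the largest range of the difference in enrichment between its probes (2.22) and was looked at for that reason. Its brightest probe read 7.08 and 7.11, 7.99 and 7.92, 7.03 and 7.09, and 7.95 and 7.94 in the 4 groups, a difference of 0.03 (adjusted p = 0.73) that was called higher with quantile normalization (0.38), with normexp and quantile normalization (0.36), the mean of the probes (1.46) and the spike-ins (1.11). A second probe read 6.32 and 6.35, 5.76 and 5.76, 6.11 and 6.13, and 7.64 and 7.63, a difference of 2.09, and another gave 2.25. The brightest was high in both RIP groups, the other probes in miR-634 RIP alone, with miR-NC RIP below input.

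RPL15 showed a like split: its brightest probe gave a difference of -0.15 ± 0.48 (adjusted p = 0.79), -0.76 and called lower without miR-NC RIP array 1, and 0.45 and called higher without miR-NC RIP array 2. In miR-634 cells that probe read 4.98 and 5.0 in input and 3.44 and 3.41 in RIP. A second RPL15 probe read -0.02 and 0.06 in miR-NC input, 0.18 and 0.23 in miR-NC RIP, -0.46 and -0.57 in miR-634 input, and 1.08 and 1.07 in miR-634 RIP, a difference of 1.40. Which transcripts each probe reads was not tested.

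In the input, the members differed little between miR-634 and miR-NC cells, and nearly all lay on 1 side of 0. With limma 0 of 80 members were called higher and 7 lower, with 73 not called, where 11.7% of all genes were higher and 12.1% lower; at an unadjusted p under 0.05 the counts were 0 higher and 23 lower (2018 and 2075 of the 10956 genes). The median was -0.09 beside -0.00 over all genes. Below 0 lay 78 of 80 members (all but RPS27A and RPS4X). This number was 52 with normexp and quantile normalization, 54 with quantile normalization and 60 with the percentile of all probes. The interquartile range over members was 0.08, beside 0.27 over all genes. It was also 0.08 over the other TOP mRNAs, a list described below, of which 19 of 23 lay below 0. The members' median was negative under every scaling tried, from -0.02 with quantile normalization to -0.31 with the spike-ins. In arrays numbered 1 and 2 alike, 73 members were below 0.

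Among the 7 called lower were RPL7L1 at -1.03 ± 0.06 (adjusted p = 0.00033), RPL41 at -0.97 ± 0.05 (adjusted p = 0.00028), RPS16 at -0.43 ± 0.04 (adjusted p = 0.0013), RPL7 at -0.34 ± 0.04 (adjusted p = 0.0033), RPL10L at -0.21 (adjusted p = 0.028) and RPS14 at -0.16 (adjusted p = 0.047). For each of them both miR-634 input arrays lay below both miR-NC input arrays. RPS14, a protein of the small subunit whose loss underlies an acquired anaemia, read 5.67 and 5.65 against 5.47 and 5.53. The call of RPL7 was lost with the mean of its probes (-0.35). That of RPL10L was lost with quantile normalization (-0.14), normexp and quantile normalization (-0.12), the percentile of all probes and the authors' values (both -0.16). It was also lost with no filter on dim probes (-0.21) and with the spike-ins (-0.43). Without any 1 of the 4 input arrays the calls of RPL10L and RPS14 were lost, RPL10L running from -0.24 to -0.18 and RPS14 from -0.19 to -0.13, and 4 members were called: RPL7, RPL7L1, RPL41 and RPS16. The call of RPS14 was also lost without any 1 of the 4 RIP arrays, at an unmoved value, and stayed only with quantile normalization, the mean of the probes and the intensity trend. Without miR-NC input array 2, 2 members were called higher, RPS27A and RPS4X as given above. RPS27L, at -0.20 (adjusted p = 0.068), was called without either miR-634 RIP array, with normexp and quantile normalization and with the intensity trend, each at the same value. The 3 members with the largest gain in enrichment, RPS16, RPL41 and RPL7L1, were thus among the 4 called without any input array. Their gain exceeded their fall in input: the RIP arrays themselves rose by 3.35, 2.51 and 1.13.

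**Figure D3:**
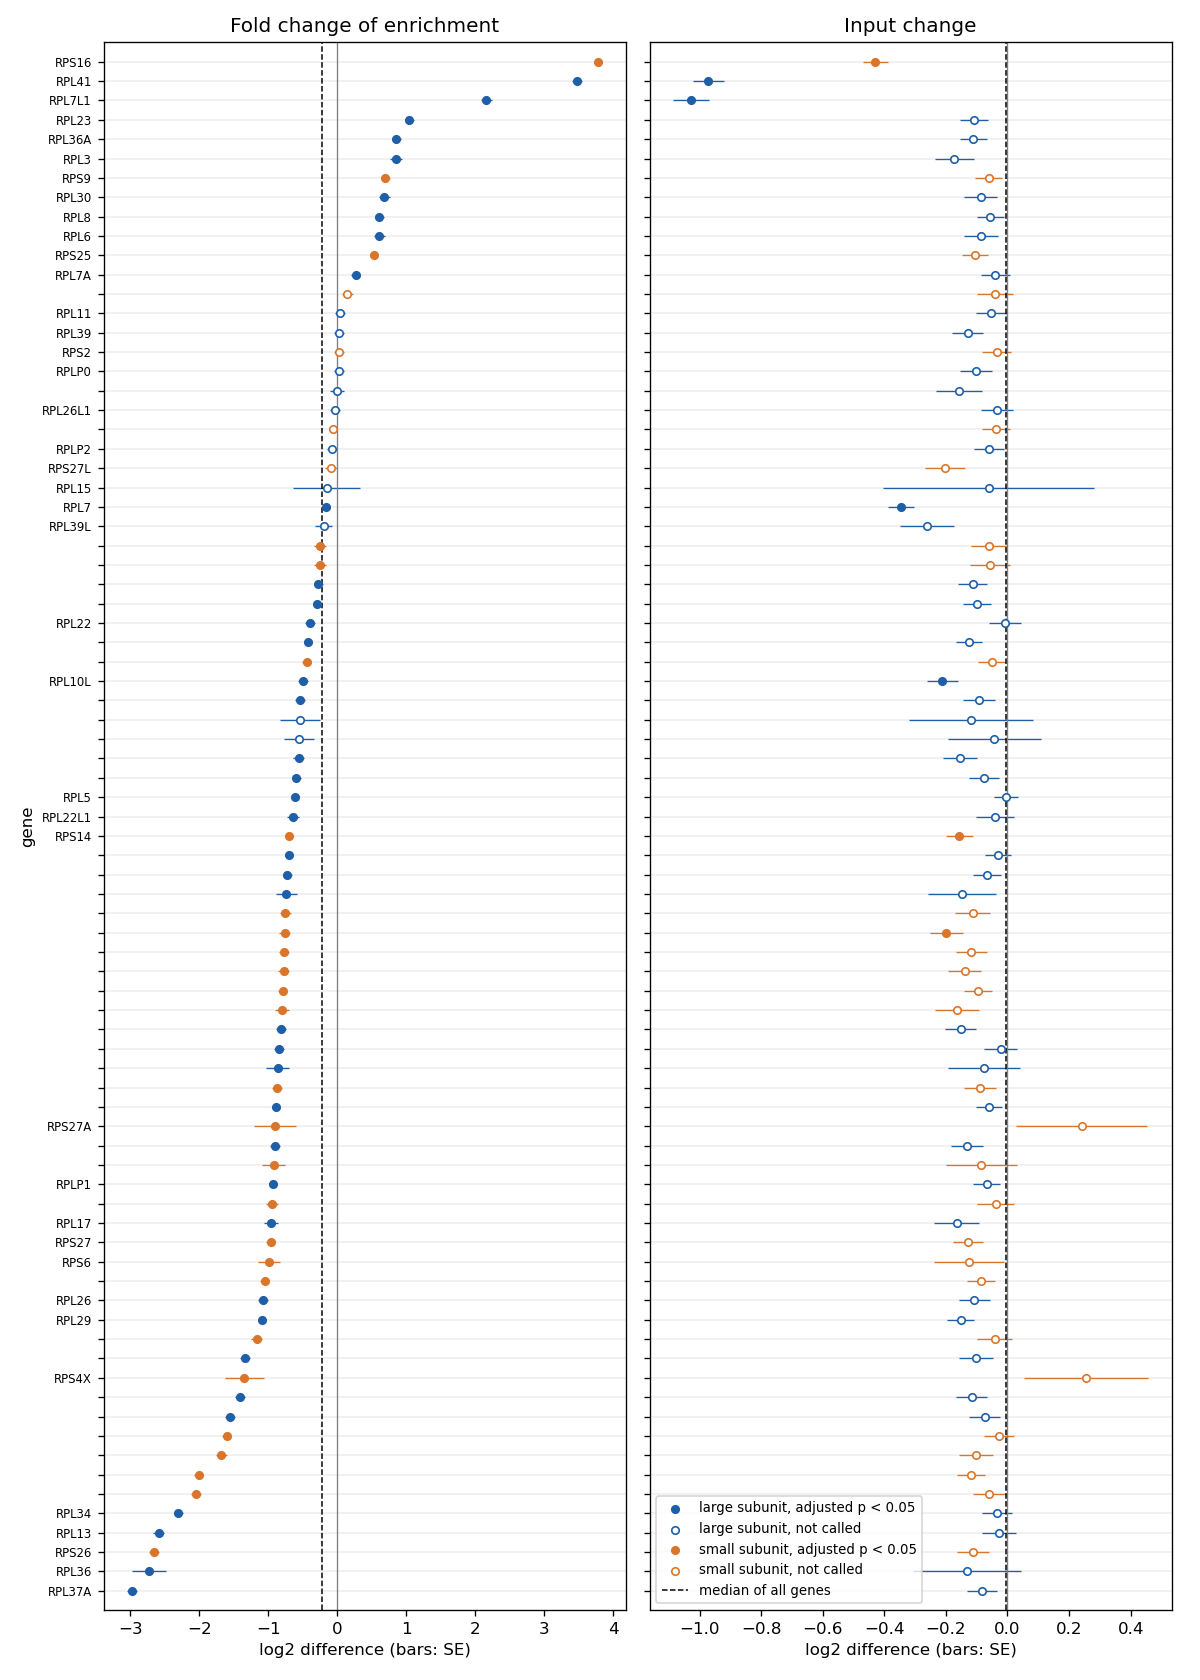
All 80 members ordered by the difference in enrichment, with that difference and the input change (log2, points) and their SE (bars) in separate panels, and dashed lines at the all-gene medians; most genes described in the text carry their names. Most differences in enrichment lie below the all-gene median of -0.22 (spike-in scaling shifts all of them up by 1.08), while most input changes gather just below 0, with RPL7L1, RPL41, RPS16 and RPL7 to the left and RPS27A and RPS4X, with wide bars, to the right.

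Compared between RIP arrays alone, 59 of 80 members were lower in miR-634 cells, 12 higher and 9 not called, beside 46.5% and 30.9% of all genes. The median of -0.71 (all genes -0.18) turned to 0.15 with spike-in scaling, where 28 members were higher and 12 lower (7405 and 379 of the 10956 genes). RPS16 at 3.35 (adjusted p = 1.3e-07) and RPL41 at 2.51 (adjusted p = 2.1e-07) rose most, and RPL37A at -3.06 (adjusted p = 1.3e-07) and RPL36 at -2.86 (adjusted p = 1.3e-05) fell most, each with the 2 arrays of both groups apart. The members called higher were RPL3, RPL6, RPL7A, RPL7L1, RPL8, RPL23, RPL30, RPL36A, RPL41, RPS9, RPS16 and RPS25. Over the members, RIP change and input change, which share no arrays, correlated with r = -0.44 (Pearson) and rho = -0.04 (Spearman), and without RPS16, RPL41 and RPL7L1 -0.02 and 0.08 over 77 members, beside -0.22 and -0.13 over all genes, so the members' negative r came from those 3.

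The members spread apart in the RIP. The interquartile range of their log2 values was 1.25 and 1.14 in miR-NC input and 1.17 and 1.18 in miR-634 input, against 1.95 and 1.88 in miR-NC RIP and 1.98 and 1.99 in miR-634 RIP. As a percentage of the signal summed over all measured genes, the 80 probes made up 16.4 and 16.5 in miR-NC input, 17.7 and 17.9 in miR-NC RIP, 15.6 and 15.9 in miR-634 input, and 13.02 and 12.93 in miR-634 RIP. This share was lowest on the miR-634 RIP arrays. Scaling by 1 factor per array leaves it unchanged, and it was not computed after quantile normalization. Probe signal is not a count of molecules, so the shares are read only between arrays.

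Within the members' own signal, RPS16, RPL41 and RPL7L1 together made up 2.998% and 2.916% in miR-NC input, 1.60% and 1.55% in miR-NC RIP, 1.84% and 1.84% in miR-634 input, and 15.5% and 15.3% in miR-634 RIP. RPL13 made up 2.18% and 2.17%, 8.48% and 8.88%, 2.27% and 2.31%, and 1.97% and 2.02% in the same order. The first group of genes thus stood out in miR-634 RIP and RPL13 in miR-NC RIP. With those 3 genes taken out, the other 77 members made up 15.9% and 16.0% of all signal in miR-NC input, 17.4% and 17.7% in miR-NC RIP, 15.3% and 15.6% in miR-634 input, and 11.01% and 10.95% in miR-634 RIP.

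Other transcripts of the TOP class, listed as other TOP mRNAs, were set beside the members. Many encode translation factors, while GAS5 and SNHG1 are noncoding. Of 23 measured of 24, the difference in enrichment was higher for 6 and lower for 11 (28.1% and 43.3% over all genes), with a median of -0.11 (raised by 1.08 with spike-in scaling, as for all genes). Their input change had a median of -0.07 with 19 of 23 below 0, and 1 was called higher and 4 lower (11.7% and 12.1% over all genes). EEF1A1, which delivers tRNA to the ribosome, read 6.02 and 6.03 in miR-NC input, 5.65 and 5.64 in miR-NC RIP, 5.98 and 5.94 in miR-634 input, and 8.01 and 7.95 in miR-634 RIP. It was high on both miR-634 RIP arrays alone, as RPS16 was, with a difference of 2.40 (adjusted p = 9.9e-07). EEF1G, of the same elongation complex, gave 1.05 (adjusted p = 0.0006), and RACK1, a scaffold on the small subunit, gave 0.97 (adjusted p = 5.7e-05).

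TPT1 gave -0.72 (adjusted p = 0.00013), the poly(A)-binding protein gene PABPC1 -0.54 (adjusted p = 0.0012) and FAU, which encodes a small-subunit protein fused to a ubiquitin-like one, -0.32 (adjusted p = 0.0054), all turned positive by spike-in scaling. The call of FAU was also lost with quantile normalization (-0.049), normexp and quantile normalization (-0.031), the percentile of all probes and the authors' values (both -0.20). EEF2, the translocase, gave -0.11 (adjusted p = 0.32). Each called difference of these TOP mRNAs had the same sign in arrays numbered 1 and in those numbered 2. In miR-NC cells this list had 1 gene higher and 18 lower (median -0.57), where 33.6% and 45.3% of all genes were called, and in miR-634 cells 5 higher and 16 lower (median -0.72), beside 36.1% and 48.3%; spike-in scaling lowers these medians further.

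Mitochondrial ribosomal proteins, which build the ribosome inside the mitochondrion, were listed by symbol from the measured genes only, so their number (76) says nothing about coverage. Of these, 28 were higher and 37 lower (28.1% and 43.3% over all genes, which also apply to the counts of the difference below). Their median difference was -0.20, close to that of all genes. Their input change had a median of -0.04 with 60 of 76 below 0, and 1 was called higher and 3 lower (11.7% and 12.1% over all genes). The 37 proteasome subunits, likewise listed from the measured genes only, had 15 higher and 12 lower, with medians of -0.18 for the difference and 0.01 for the input. Ribosome biogenesis genes (25 of 25 measured) had 11 higher and 12 lower with a median of -0.25 and an input median of 0.02. Regulators of TOP translation (12 of 13 measured), among them MTOR, LARP1 and MYC, had 5 higher and 7 lower with medians of -0.45 and 0.07. Each of these medians of the difference becomes positive with spike-in scaling. Brightness was also looked at, since 76 members lie among the brightest 1096 genes (1 of 10 equal groups by mean level): the 1020 others of that group had a median difference of -0.32 and a median input change of -0.03, beside -0.67 and -0.09 for the members. What part of the members' difference from all genes goes with brightness was not tested further.

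**Figure D4:**
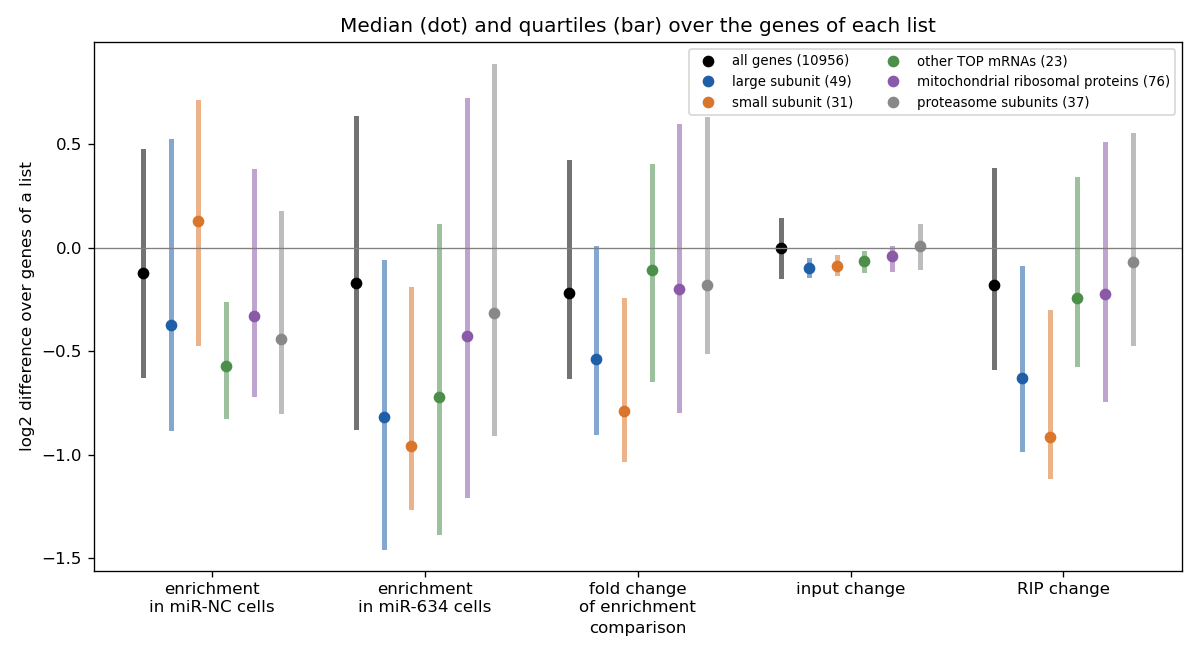
Median (dot) and quartiles (bar) of the log2 difference over the genes of each list in the 5 comparisons, with the members' subunits beside all genes, other TOP mRNAs, mitochondrial ribosomal proteins and proteasome subunits. The large and small subunit have the lowest medians of the lists shown in miR-634 enrichment, -0.82 and -0.96, and in the difference in enrichment, -0.54 and -0.79 (positive with spike-in scaling, which raises all genes by 1.08), and every list shown has its shortest bar in the input change.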

How the data were processed

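The members and gene lists were chosen with earlier results of these data known. The authors deposited scanner files of one-color arrays, whose intensity values Agilent Feature Extraction had background-subtracted and detrended (version 12.0.1.1 in the headers, 9.1 in the submitters' notes), and a table of log2 values processed by the authors in GeneSpring, used as an alternative. Its column medians were -0.44 and -0.38 (miR-NC input), 0.87 and 0.86 (miR-NC RIP), -0.42 and -0.39 (miR-634 input) and 0.36 and 0.32 (miR-634 RIP). Its scale and direction were found by comparison (r of at least 0.999998 with log2 intensity scaled on the 75th percentile of all probes and centred per probe on the median), and 0 of scale, centring and direction stayed unknown.

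Control and outlier spots were left out, spots of a probe averaged, and log2 processed intensity scaled on each array's 75th percentile over the 16805 of 58201 probes (28.9%) well above background on all 8 arrays. Of 33080 probes with a RefSeq-style accession, 31104 matched a symbol in the GRCh38.p14 tables (22439 symbols); the array design is annotated on an older build. The brightest passing probe stood for a gene. limma (3.58.1, R 4.3.3) fitted 4 group means with eBayes, and p-values were adjusted by Benjamini-Hochberg over 10956 genes at 0.05 (two-sided). The scripts were tested on simulated data. Tables and figures used Python 3.11.15, pandas 2.3.3, numpy 2.4.6, scipy 1.17.1 and matplotlib 3.10.9.

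Genes named by rule were members with known roles, paralogs and their partners, the 2 largest called rises and falls of each comparison with 1 sign in the arrays of either number, 2 members on a protein list of the study, other TOP mRNAs, and genes that check the labels; values of some single genes are not reported here. Alternatives were normexp with quantile normalization, quantile normalization, median scaling, the percentile of all probes, spike-in scaling, the authors' values, no filter on dim probes, a filter on input arrays, the mean of a gene's probes, an intensity trend, a replicate block, leaving out each array, leaving out paralog members, and the methods' t-test, taken from their general paragraph on statistics and applied here to the difference in enrichment. The last called 62 of 80 members before adjustment (12 higher, 50 lower) and 12 and 45 after it, and 6533 of all genes before (2709 higher, 3824 lower) and 2274 and 2966 after.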

Additional observations from a re-analysis of the deposited data

Results flagged for a closer look

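For 15 members limma called enrichment in opposite directions in the 2 kinds of cells, and the difference itself, tested in the same fit, passed the test at a size above 1 on the log2 scale. These were 18.8% of the 80 members, beside 9.53% of all genes (1044). With spike-in scaling enrichment in miR-NC cells was negative for all 15, and the signs in the 2 kinds of cells differed only for RPS16, RPL41 and RPL7L1. Of these, RPL7L1 was at 0.31 in miR-634 cells and no longer called there. No cause was tested.

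RPS16 at 3.78, RPL41 at 3.48 and RPL7L1 at 2.16 went from below input in miR-NC cells to above it in miR-634 cells. RPL7L1 and RPL41 were also the members with the largest fall in the input, so that RIP and input moved apart in these genes.

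In the other direction, from above input to below it, went RPL37A (-2.98), RPL36 (-2.73), RPS26 (-2.66), RPL13 (-2.59), RPL34 (-2.30), RPS20 (-2.05), RPS19 (-2.01), RPS7 (-1.68), RPS15 (-1.61), RPL31 (-1.34), RPS28 (-1.17) and RPL26 (-1.08). In miR-NC cells quantile normalization called RPS15 and RPS20 lower and did not call RPL31, and normexp with quantile normalization called RPS15 lower and did not call RPS20, RPL31 and RPL26. The higher call of RPS15 (0.13) was also lost with the percentile of all probes, the authors' values, either filter alternative and without any 1 of the 4 miR-NC arrays or the 2 miR-634 input arrays. A second probe of RPL26 gave -0.11 in miR-NC cells. With spike-in scaling the difference itself was no longer called for RPS15 (-0.52), RPL31 (-0.25), RPS28 (-0.085) and RPL26 (0.0060). RPS19 is the gene most often mutated in Diamond-Blackfan anaemia, and RPS26 and RPS7 are also among its genes.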

How the results depend on the processing

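Of 153 values of named genes, 150 kept their direction and call with median scaling, 146 with the percentile of all probes and with the authors' values, 141 with quantile normalization, 140 with normexp and quantile normalization, 148 without a filter on dim probes, 150 with a filter on input arrays, 148 with the mean of the probes, 150 with an intensity trend, 97 with spike-in scaling, and 144 to 149 without 1 array. Where an array was left out, the lone array of its group was assumed to vary like the other groups. Cause was not tested for any of the values below, except that spike-in scaling shifts all genes of an array alike. RPL27A and RPL3L were left out because the only probe of each was too dim, and RPL10 and RPSA were not measured. The RPL27A probe read -5.28 and -5.22 in miR-NC input. Whether it reads RPL27A mRNA well was not tested, so its low signal says little about that mRNA.

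Enrichment in miR-NC cells. Members higher were 15 with normexp and quantile normalization, 16 with quantile normalization and 0 with spike-in scaling, where 78 were lower. The median over members was -0.52 with either quantile setting, -0.086 with median scaling, -0.14 with the percentile of all probes, -2.67 with the spike-ins, -0.15 with the authors' values, -0.15 with the mean of the probes, -0.041 without paralog members and -0.14 to -0.11 without 1 array. The call of RPS27 was lost with the mean of its probes (-0.11). Spike-in scaling reversed RPL13 (-0.16), RPL26 (-2.16), RPL3 (-1.87), RPL36 (-1.72), RPL37A (-0.10), RPLP0 (-1.43), RPLP1 (-1.67), RPLP2 (-1.28), RPS25 (-2.20), RPS26 (-1.16), RPS27A (-2.09), RPS4X (-2.15) and RPS6 (-2.02). Quantile normalization reversed RPLP1 (-0.17), RPS25 (-0.0069) and RPS6 (-0.32), and with normexp RPS25 (-0.043) and RPS6 (-0.20).

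Enrichment in miR-634 cells. The median over members was -1.05 with normexp and quantile normalization, -1.01 with quantile normalization, -0.77 with median scaling, -0.76 with the percentile of all probes, -2.32 with the spike-ins and -0.76 with the authors' values. Members higher were 2 with the spike-ins, which reversed RPLP0 (-0.33), RPLP2 (-0.27) and RPS25 (-0.59). The mean of the probes reversed RPL15 (0.014).

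Difference in enrichment. The members' median was -0.51 with normexp and quantile normalization, -0.51 with quantile normalization, -0.62 with median scaling, -0.55 with the percentile of all probes, 0.42 with the spike-ins (33 higher, 8 lower), -0.55 with the authors' values, -0.62 without a filter on dim probes and with the filter on input arrays, -0.64 with the mean of the probes, and -0.72 to -0.60 without 1 array. RPL15 turned to 0.45 without miR-NC RIP array 2. Spike-in scaling reversed EEF2 (0.98), FAU (0.76), PABPC1 (0.54), RPL10L (0.59), RPL15 (0.93), RPL17 (0.12), RPL22 (0.68), RPL22L1 (0.45), RPL26 (0.0060), RPL26L1 (1.05), RPL39L (0.89), RPL5 (0.47), RPL7 (0.92), RPLP1 (0.15), RPLP2 (1.01), RPS27 (0.12), RPS27A (0.18), RPS27L (0.99), RPS6 (0.092) and TPT1 (0.36).

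Input change. The members' median was -0.032 with normexp and quantile normalization, -0.023 with quantile normalization, -0.040 with the percentile of all probes, -0.041 with the authors' values, -0.31 with the spike-ins, and -0.12 to -0.074 without 1 array. Members lower were 4 with the percentile of all probes, the spike-ins, the authors' values and no filter, 13 with an intensity trend, and 4 to 7 without 1 array, with RPL29 (-0.15) and RPL39L (-0.26) among those the trend added; members higher were 0 with an intensity trend and 0 to 2 without 1 array.

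RIP change. The members' median was -0.54 with normexp and quantile normalization, -0.50 with quantile normalization, -0.66 with median scaling, -0.54 with the percentile of all probes and with the authors' values, 0.15 with the spike-ins (28 higher, 12 lower), and -0.78 to -0.67 without 1 array. Spike-in scaling reversed RPL22L1 (0.19) and RPL7 (0.36).

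The replicate numbers were tried as a block. Deviations of same-numbered arrays correlated between groups at -0.04 to 0.08, so the arrays share only a number. With the replicate block members higher and lower were 31 and 39 for miR-NC enrichment, 15 and 57 for miR-634 enrichment, 12 and 53 for the difference, 0 and 5 for the input change and 12 and 59 for the RIP change, and of named values the calls of RPL7 (difference) and RPS14 (input) were lost.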
